A study of Mus musculus with 15 samples.

Results

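The genes described here are 9 splicing regulators of skeletal muscle, chosen by symbol among the 22798 gene symbols of the count table: the muscleblind genes Mbnl1, Mbnl2 and Mbnl3, the CELF genes Celf1 and Celf2, the RBFOX genes Rbfox1 and Rbfox2, and the RNA-binding motif genes Rbm20 and Rbm24. Of these, 8 had values and passed the filter on low counts, and Mbnl3 was not analysed here. Mbnl1 prompted the choice through its values in the libraries labelled CD47-KO, so its differences between those libraries and the others are given as a description with no test. Gene-level RNA-seq counts came from 15 libraries of skeletal muscle of C57BL/6 mice aged 12 month, kept on a normal diet and left without food overnight before sampling. The groups were CD47-KO (CD47-/- mice, 3 libraries), exercise (6 libraries, with no separate genotype given) and sedentary (wild type, 6 libraries). Which muscle was taken, the sex of the mice, the exercise protocol and how CD47 was deleted were not given in the sources used here. The labels do not say that each library is a separate animal, so p-values measure only the spread between these libraries, which may be technical.

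Muscleblind proteins bind YGCY-type repeats in pre-mRNA and shift muscle transcripts towards adult exon use, and in human myotonic dystrophy they are held on expanded CUG or CCUG repeats. CELF proteins often act on the same exons in the opposite direction and fall after birth in mouse striated muscle. RBFOX proteins bind UGCAUG beside regulated exons, Rbm20 represses exons of the titin gene, chiefly in heart, and Rbm24 promotes the inclusion of muscle exons. Gene counts sum all isoforms of a gene, so they do not show which exons were used or where the proteins were.

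Total counts were 76005277 to 84364189 in libraries labelled CD47-KO, 54851831 to 77628546 in exercise libraries and 50928458 to 70774311 in sedentary libraries. The mitochondrial genome gave 18.1 to 19.2% of counts in libraries labelled CD47-KO, 4.49 to 12.5% in exercise libraries and 4.77 to 18.2% in sedentary libraries, with the highest sedentary share in sedentary library 6. Cd47 itself had 11.5 to 12.1 CPM (counts per library size, scaled with TMM factors) in libraries labelled CD47-KO, 10.8 to 15.7 CPM in exercise libraries and 11.4 to 16.4 CPM in sedentary libraries. It did not pass the test against sedentary muscle as counted (log2 fold change -0.26, SE 0.17, adjusted p = 0.295, edgeR's quasi-likelihood test) or against exercised muscle (-0.17, SE 0.16, adjusted p = 0.518). After the correction for GC content described next, it was called lower in libraries labelled CD47-KO, by -1.19 (adjusted p = 0.00172) against sedentary and -1.12 (adjusted p = 0.00184) against exercise. Because the call depends on the correction, the libraries are named by their label. Fold changes of all genes between libraries labelled CD47-KO and sedentary libraries followed the GC content of the transcript: it had a median of 1.25 on the log2 scale in the GC decile with the least GC and -0.59 in that with the most. For this reason each difference of a named gene in libraries labelled CD47-KO is given as tested and again after a correction for GC content. Muscle fibre markers (10 of 10 above 0) summed to 99290 to 141900 CPM in libraries labelled CD47-KO, 159000 to 270000 CPM in exercise libraries and 131900 to 237800 CPM in sedentary libraries. In bulk tissue, fewer cells of a type and less RNA per cell cannot be told apart.

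Mbnl1 lies on chromosome 3 of GRCm38 from 60472830 to 60629750 on the plus strand and had 25 annotated transcripts. Mbnl2 lies on chromosome 14 from 120275669 to 120431697 on the plus strand, and Rbm24 on chromosome 13 from 46418434 to 46431095 on the plus strand. Because these are the genes whose levels in libraries labelled CD47-KO lay above all exercise libraries, 30 bases upstream of each are shown from RefSeq (GRCm38.p6, plus strand), at chr3:60472719-60472748, chr14:120275639-120275668 and chr13:46418050-46418079. Capitals mark the E-box letters CANNTG or the GC box GGGCGG.
Mbnl1: aactttatgtccCACGTGtcagttccacca
Mbnl2: ggattggtgggctgagcctGGGCGGggcct
Rbm24: gtccCAGGTGtttgggaggggactggcctc
The matches begin 99 bases before the RefSeq start in Mbnl1, 11 in Mbnl2 and 246 in Rbm24, whose RefSeq start lies upstream of the GENCODE gene start given above. Of the 250 bases before these starts, 250 lie inside an annotated RefSeq gene for Mbnl1, 17 for Mbnl2 and 198 for Rbm24. Upstream thus means before the start used. Searched on both strands, CANNTG occurred in 66.2% of 32851 promoter windows of 250 bases and GGGCGG in 32.7%, so a match is common and is a description only. Mbnl1 also had a downstream start whose window held 4 matches to GGGCGG and 33 CpG pairs at 73.6% GC, while its upstream window held 1 CpG at 38.0% GC. Gene counts do not tell transcripts of these starts apart. The 250 bases before the annotated start of Celf1 held 4 matches to GGGCGG and none to CANNTG.

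Mbnl1, the main muscleblind gene of adult mouse muscle, was highest in the libraries labelled CD47-KO, at 359.9, 113 and 251 CPM. Exercise libraries had 5.96 CPM at the lowest, 10.1 at the median and 30.4 at the highest, and sedentary libraries had 3.56 CPM at the lowest, 17.7 at the median and 44.3 at the highest. Groups did not overlap: the lowest library labelled CD47-KO lay 3.73 times above the highest exercise library and 2.56 times above the highest sedentary library. The counts behind these values were 28208, 9884 and 21613 in the libraries labelled CD47-KO. Mean levels were 241 ± 124 CPM in libraries labelled CD47-KO (SD, n = 3), 13.8 ± 9.27 CPM in exercise libraries (n = 6) and 22.8 ± 17.3 CPM in sedentary libraries (n = 6). The fitted log2 fold change was 4.13 (SE 0.65) over exercise and 3.40 (SE 0.64) over sedentary, and both were smaller after the GC correction, at 2.82 (SE 0.53) and 2.25 (SE 0.53). Mbnl1's longest transcript has 39.7% GC, in the decile with the least GC, where 45.4% of genes were called higher in libraries labelled CD47-KO than in sedentary libraries.

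Mbnl2, the muscleblind paralog that is prominent in brain, showed the same order of groups with a tighter spread. It had 125, 147 and 149 CPM in the libraries labelled CD47-KO. In exercise libraries the lowest value was 19.2 CPM, the median 21.8 and the highest 50.9, and in sedentary libraries these were 14.6, 24.7 and 56.4 CPM. Again no library labelled CD47-KO overlapped the others, the lowest being 2.46 times the highest exercise library and 2.22 times the highest sedentary library. Mbnl2 rose over sedentary muscle by a log2 fold change of 2.31 (SE 0.39, a fold of 4.97, adjusted p = 0.000746, edgeR) and over exercised muscle by 2.33 (SE 0.39, a fold of 5.04, adjusted p = 0.000588, edgeR), higher in 3 of 3 libraries in both cases. The GC correction left these values at 2.29 (adjusted p = 0.00326) and 2.37 (adjusted p = 0.00192). Its transcript has 49.3% GC, where the median gene had a log2 fold change of -0.07 over sedentary libraries and 5.25% of genes were called higher. The antisense gene Gm26679 overlaps Mbnl2 exons and reached at most 0.0573 CPM in libraries labelled CD47-KO, 0.0572 CPM in exercise libraries and 0.137 CPM in sedentary libraries. Both comparisons use the same 3 libraries labelled CD47-KO, so they are not independent.

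**Figure D1:**
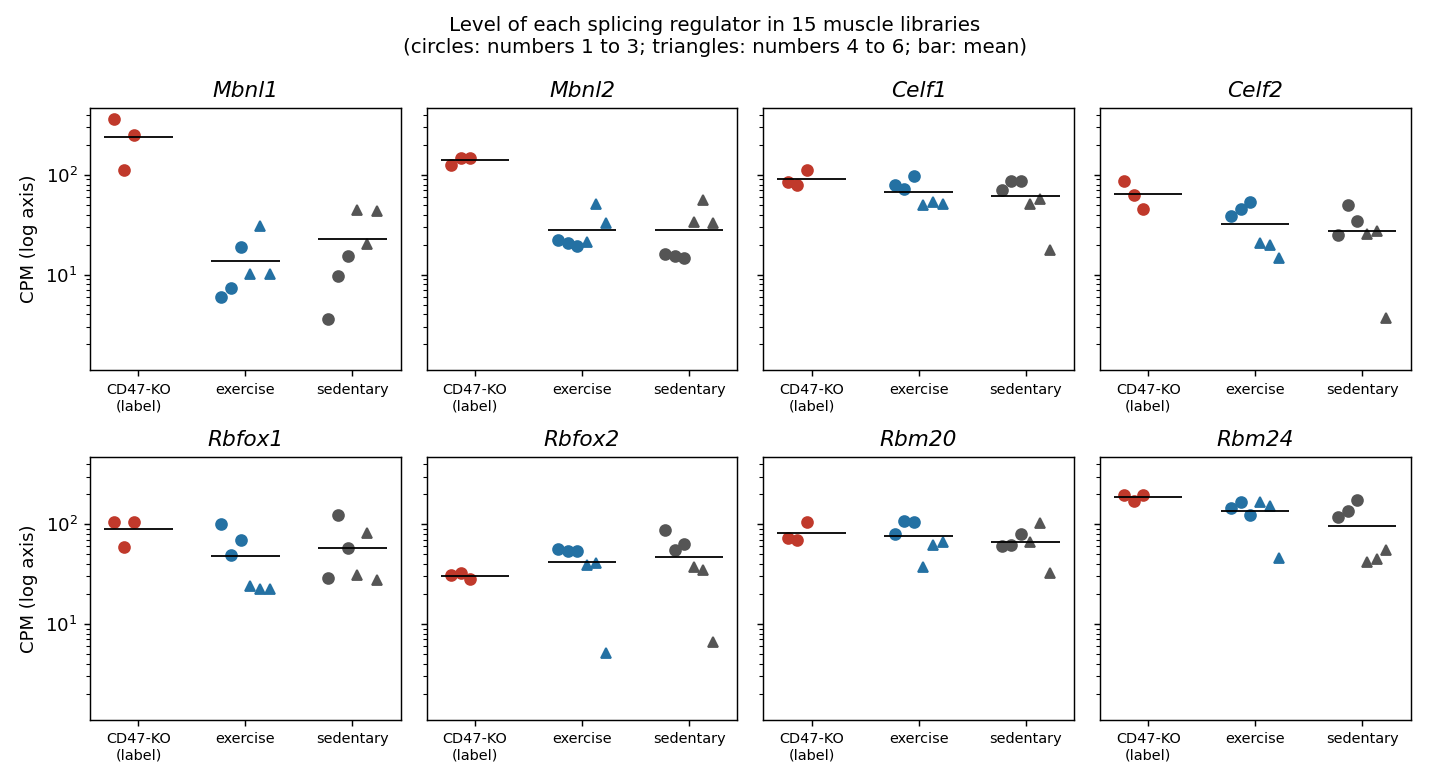
Level of each regulator in CPM on a log axis, 1 point per library, with libraries labelled CD47-KO on the left, exercise in the middle and sedentary on the right; circles are numbers 1 to 3, triangles numbers 4 to 6 and bars group means. Mbnl1 and Mbnl2 in the libraries labelled CD47-KO sit above every other library, whereas Rbfox2 in these libraries lies within the range of both other groups.

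Of the 7 measured members other than Mbnl1, 1 was called higher and 0 lower in libraries labelled CD47-KO, in both comparisons. Over all 17975 genes tested, 20.7% were called against sedentary libraries (11.9% higher and 8.75% lower) and 20.6% against exercise libraries (12.2% higher and 8.34% lower). A count of 1 in 7 is near these backgrounds. The members' median log2 fold change was 0.63 over sedentary libraries and 0.48 over exercise libraries, against -0.11 and -0.07 for all genes tested. After the GC correction the same 1 of 7, Mbnl2, was called higher and 0 lower in each, the members' medians were 0.34 and 0.43, and the background was 8.95% against sedentary libraries (4.31% higher, 4.64% lower) and 9.08% against exercise libraries (4.51% higher, 4.57% lower). Libraries labelled CD47-KO lay wholly above sedentary libraries for 1 of the 7 and wholly above exercise libraries for 2 of the 7, while 15.7% and 17.5% of all genes did so. None lay wholly below, where 10.3% and 14.1% of all genes did.

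CELF genes did not pass either test. Celf1, which binds GU-rich sequences and whose excess in mice brings back fetal splicing, had 84.9, 79.5 and 112 CPM in the libraries labelled CD47-KO. Its exercise libraries had 49.7 to 97.0 CPM with a median of 63.0, and its sedentary libraries 17.5 to 86.8 CPM with a median of 63.6. The groups overlapped, with log2 fold changes of 0.58 (SE 0.36, adjusted p = 0.282, edgeR) over sedentary and 0.45 (SE 0.36, adjusted p = 0.418) over exercise. After the GC correction Celf1 had 0.34 (adjusted p = 0.611, edgeR) and 0.20 (adjusted p = 0.795). Celf2, its paralog with a similar RNA-binding domain, had 85.9, 62.9 and 45.3 CPM in the libraries labelled CD47-KO. It had 14.5 to 52.9 CPM with a median of 29.7 in exercise libraries and 3.70 to 49.9 CPM with a median of 26.3 in sedentary libraries. Of the libraries labelled CD47-KO, 2 lay above every exercise and sedentary library. Its log2 fold change over sedentary was 1.23 (SE 0.52, adjusted p = 0.105, edgeR) as tested and 0.29 (adjusted p = 0.827) after the GC correction, and over exercise 1.02 (SE 0.52, adjusted p = 0.186) and 0.01 (adjusted p = 0.996). Sedentary library 6 and exercise library 6 hold the lowest Celf2 values of their groups. A fit without both was added after seeing the data and had no GC correction. In it Celf2 passed the test over sedentary (log2 fold change 1.08, adjusted p = 0.0358, edgeR) and did not pass over exercise (0.96, adjusted p = 0.0549).

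RBFOX genes did not pass either test. Rbfox1, the paralog more restricted to muscle, heart and neurons, had 105, 59.5 and 106 CPM in the libraries labelled CD47-KO. It had 22.2 to 99.7 CPM with a median of 36.8 in exercise libraries and 27.5 to 123 CPM with a median of 44.9 in sedentary libraries. Ranges overlapped, and the log2 fold change was 0.63 (SE 0.53, adjusted p = 0.452, edgeR) over sedentary and 0.92 (SE 0.53, adjusted p = 0.245) over exercise. After the GC correction Rbfox1 had 0.16 (adjusted p = 0.908, edgeR) and 0.43 (adjusted p = 0.697). Rbfox2, the more widely expressed paralog, had 31.0, 32.4 and 28.5 CPM in the libraries labelled CD47-KO, a span of 1.14 times. Exercise libraries had 5.09 to 56.6 CPM with a median of 47.0, and sedentary libraries 6.65 to 88.4 CPM with a median of 46.0. It was the only measured member with a negative fitted value in both comparisons, with log2 fold changes of -0.63 (SE 0.63, adjusted p = 0.533, edgeR) over sedentary and -0.44 (SE 0.62, adjusted p = 0.679) over exercise. In each of those groups library 6 alone lay below the libraries labelled CD47-KO. After the GC correction Rbfox2 had -0.35 (adjusted p = 0.802, edgeR) over sedentary and -0.17 (adjusted p = 0.907) over exercise.

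Rbm24, an RNA-binding protein needed for sarcomere assembly in mouse heart, had 196, 170.0 and 196 CPM in the libraries labelled CD47-KO. Exercise libraries had 46.0 to 169 CPM with a median of 149, and sedentary libraries 42.2 to 177 CPM with a median of 86.3. The lowest library labelled CD47-KO lay above the highest exercise library by a ratio of only 1.00. Rbm24's log2 fold change was 0.97 (SE 0.43, adjusted p = 0.126, edgeR) over sedentary and 0.48 (SE 0.44, adjusted p = 0.492) over exercise, and 1.11 (adjusted p = 0.103) and 0.61 (adjusted p = 0.417) after the GC correction. Leaving out single libraries gave Rbm24 an adjusted p of 0.0468 to 0.243 over sedentary (edgeR, 9 fits, without the GC correction). The lowest was the only fit that passed. It left out sedentary library 3, the highest sedentary library for Rbm24, and gave a log2 fold change of 1.24. Rbm20, whose loss in mice lengthens cardiac titin, had 72.7, 69.2 and 106 CPM in the libraries labelled CD47-KO. It had 37.5 to 107 CPM with a median of 73.8 in exercise libraries and 32.7 to 102 CPM with a median of 63.8 in sedentary libraries. All 3 groups overlapped, with log2 fold changes of 0.30 (SE 0.33, adjusted p = 0.582, edgeR) over sedentary and 0.10 (SE 0.33, adjusted p = 0.869) over exercise. After the GC correction Rbm20 had 0.69 (adjusted p = 0.226, edgeR) and 0.53 (adjusted p = 0.383).

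**Figure D2:**
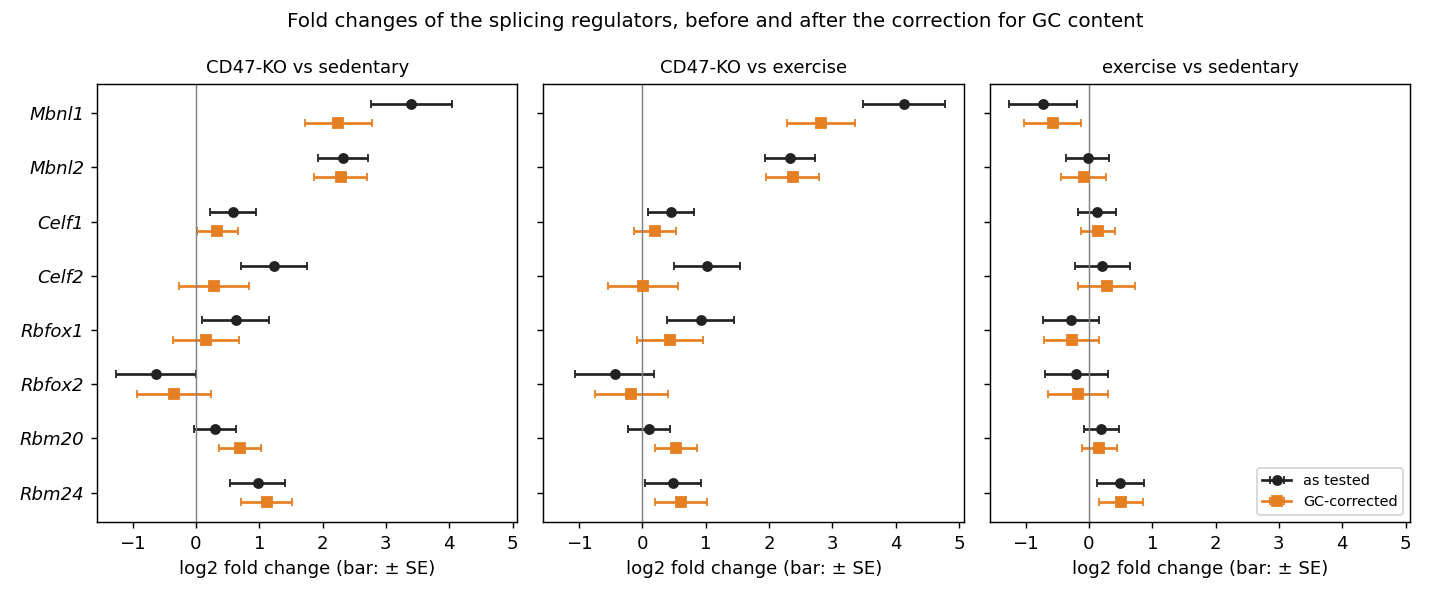
Log2 fold change of each regulator (x axis, bars ± SE) in the 3 comparisons, as tested (circles) and after the GC correction (squares). Mbnl2 keeps its value near 2.3 in both comparisons of libraries labelled CD47-KO, Mbnl1 and Celf2 are smaller after the correction, and all 8 genes lie between -0.72 and 0.50 as tested for exercise against sedentary.

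**Figure D3:**
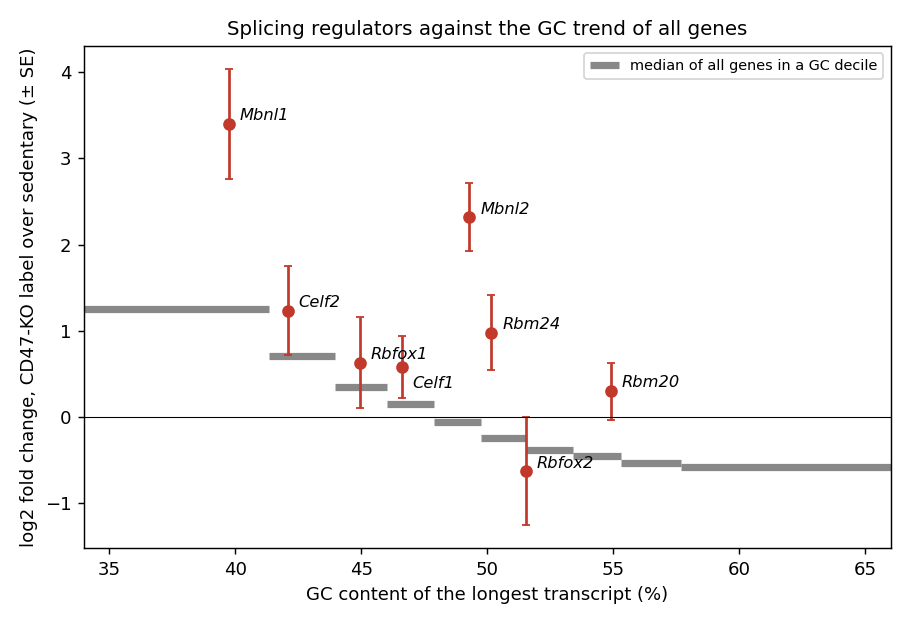
Log2 fold change of each regulator (y axis, bars ± SE), libraries labelled CD47-KO over sedentary, against the GC content of its longest transcript in percent (x axis); grey bars are medians of all genes in each decile of GC content, the outer ones drawn to the edge of the axis. Rbfox1 and Rbfox2 lie within 1 SE of the bar of their GC content, and Mbnl1 and Mbnl2 lie more than 2 above theirs.

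The exercise comparison asks how the regulators of exercised muscle differ from those of sedentary muscle. None of the 8 members was called, at a background of 0.0%, since edgeR called 0 of 17975 genes (665 at an unadjusted p under 0.05, and 9 genes called by DESeq2). Log2 fold changes were -0.72 (SE 0.54) for Mbnl1, -0.02 (SE 0.34) for Mbnl2, 0.13 (SE 0.30) for Celf1 and 0.21 (SE 0.44) for Celf2. They were -0.29 (SE 0.44) for Rbfox1, -0.20 (SE 0.50) for Rbfox2, 0.19 (SE 0.27) for Rbm20 and 0.50 (SE 0.37) for Rbm24, all with an adjusted p of 1.0. For all 8 the exercise range overlapped the sedentary range, and among all genes 0.1% lay wholly above and 0.0612% wholly below.

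Libraries numbered 1 to 3 and those numbered 4 to 6 differed in level for several members, in both groups. The labels do not say what the numbers stand for. Celf1 had 72.7 to 97.0 CPM in exercise libraries 1 to 3 and 70.3 to 86.8 CPM in sedentary libraries 1 to 3, above all libraries of both groups numbered 4 to 6, where the highest was 56.9 CPM. Rbfox2 likewise had 53.5 to 56.6 CPM in exercise libraries 1 to 3 and 54.7 to 88.4 CPM in sedentary libraries 1 to 3, against a highest value of 40.6 CPM among numbers 4 to 6. Mbnl2 ran the other way among sedentary libraries, with 33.2 to 56.4 CPM in numbers 4 to 6 and 14.6 to 16.2 CPM in numbers 1 to 3.

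Exercise differences were therefore also taken within each set of numbers. Rbm24 had 169, 154 and 46.0 CPM in exercise libraries 4 to 6 and 42.2, 45.3 and 54.8 CPM in sedentary libraries 4 to 6, a log2 fold change of 1.35 (SE 0.45), whereas within numbers 1 to 3 it was 0.02 (SE 0.19). Rbfox1 had a log2 fold change of -1.05 (SE 0.41) within numbers 4 to 6 and 0.05 (SE 0.50) within numbers 1 to 3. For Mbnl1 these were -1.11 (SE 0.51) and 0.17 (SE 0.59), and for Mbnl2 -0.25 (SE 0.36) and 0.42 (SE 0.13). Rbm20 had -0.29 (SE 0.42) within numbers 4 to 6 and 0.54 (SE 0.18) within numbers 1 to 3. No member passed within a set (adjusted p of 0.872 or more, edgeR). In the test of the difference between sets, the exercise effect on Rbm24 was 1.33 higher on the log2 scale in numbers 4 to 6 (SE 0.53, adjusted p = 0.964, edgeR), and that on Mbnl1 was -1.29 (SE 0.86, adjusted p = 0.964). No member passed that test, at a background of 0.0%.

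Levels were compared between genes per kilobase of annotated exon, taken as the union of exons over all transcripts of a gene. This length was 18717 bases for Mbnl1 and 25884 for Celf2, whose longest transcripts have 5655 and 8856 bases. For Celf1 it was 8446 bases, against 7851 in its longest transcript. The order of the genes and the ratios between them therefore depend on the length used. In libraries labelled CD47-KO Rbm24 was highest, at 53.7 ± 4.33 CPM per kb (SD, n = 3), apart from Rbfox1 at 20.5 ± 6.07. Mbnl1, Rbm20, Mbnl2 and Celf1 followed at 12.9, 12.2, 11.7 and 10.9 CPM per kb with overlapping ranges, and Rbfox2 at 3.76 and Celf2 at 2.50 CPM per kb stood apart below them. In exercise libraries Rbm24 at 38.6 CPM per kb was followed by Rbm20 at 11.3, Rbfox1 at 10.9, Celf1 at 7.96, Rbfox2 at 5.09, Mbnl2 at 2.32, Celf2 at 1.23 and Mbnl1 at 0.737 CPM per kb. Sedentary libraries had Rbm24 at 27.3 CPM per kb, then Rbfox1 at 13.3, Rbm20 at 9.89, Celf1 at 7.28, Rbfox2 at 5.83, Mbnl2 at 2.36, Mbnl1 at 1.22 and Celf2 at 1.06 CPM per kb. In both of those groups every gene's range overlapped that of the next gene in the order. Mbnl1 per kb was 1.84, 0.493 and 1.08 times Mbnl2 in the libraries labelled CD47-KO, 0.172 to 0.629 times in exercise libraries and 0.140 to 0.845 times in sedentary libraries.

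Across the 12 exercise and sedentary libraries, Mbnl1 and Mbnl2 were correlated in log2 CPM with Pearson's r of 0.60 and Spearman's rho of 0.61, and r was 0.58 without the 2 libraries farthest from the median of Mbnl1. Within numbers 1 to 3 of both groups r was -0.18 and within numbers 4 to 6 it was 0.38, so the relation did not hold within both sets. Celf1 and Celf2 had an r of 0.96 and a rho of 0.89 over the same libraries, and an r of 0.83 without the 2 farthest. Their r was 0.65 within numbers 1 to 3 and 0.96 within numbers 4 to 6. In numbers 4 to 6 sedentary library 6 was far below the rest, at 17.5 CPM of Celf1 and 3.70 of Celf2. The next lowest values there were 49.7 and 14.5 CPM. How far the 0.96 rests on that library was not tested. Mbnl1 with Mbnl2 and Celf1 with Celf2 are 2 of 28 pairs of members, the points share library sets and base composition, and the values are descriptions. Among 6676 genes with a mean log2 CPM of at least 3, those most like Mbnl1 over all 15 libraries were Arfip1 (r of 0.97, rho 0.92), Snx2 (0.97, 0.94), Cul3 (0.97, 0.99), Nol7 (0.96, 0.92) and Psmc6 (0.96, 0.94). Their longest transcripts had 37.0 to 42.8% GC, and their r was 0.93 to 0.94 without the 2 libraries farthest from the median of Mbnl1. All 5 had a higher mean CPM in libraries labelled CD47-KO than in exercise or sedentary libraries. The means of Arfip1 were 14.6, 8.43 and 8.24 CPM in that order, and those of Cul3 292, 80.2 and 96.7 CPM. Over the 12 exercise and sedentary libraries the most alike were Tatdn1 (0.94), Dnm1l (0.93), Snx2 (0.93), Snrpb2 (0.92) and Ktn1 (0.92), with an r of 0.86 to 0.92 without the 2 farthest.

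Other splicing regulators were a list of 30 genes, of which 26 were tested. The list held paralogs of the members and genes of the PTB, Quaking, SAM68, NOVA, TIA, FMRP and RBPMS families. It also held Esrp1, Esrp2, Elavl1, Matr3, Raver1, Raver2, Ddx5 and Ddx17. Of these, 10 rose and 0 fell in libraries labelled CD47-KO relative to sedentary libraries, where 11.9% of all genes rose, with a median log2 fold change of 0.28 for the list and -0.11 for all genes. After the GC correction 4 were called higher (Ddx5, Ddx17, Matr3 and Qk) and 1 lower (Ptbp2). Of all genes 4.31% and 4.64% were called, and the list's median was -0.01. Relative to exercise libraries 11 rose and 0 fell, where 12.2% of all genes rose and 8.34% fell, and 4 were higher and 2 lower after the correction, where 4.51% and 4.57% of all genes were. Ddx5, an RNA helicase that acts with muscleblind proteins and MyoD, had 549 ± 43.9 CPM in libraries labelled CD47-KO (SD, n = 3) and 187 ± 30.1 CPM in sedentary libraries (n = 6). Its log2 fold change was 1.55 (SE 0.18, adjusted p = 3.95e-05, edgeR), and 0.82 (adjusted p = 0.0067) after the correction. Qk, the Quaking gene that regulates muscle exons, had log2 fold changes of 1.65 (adjusted p = 0.000121) and 0.58 (adjusted p = 0.0378) over sedentary, and 1.59 (adjusted p = 0.000121) and 0.45 (adjusted p = 0.103) over exercise.

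Several other genes of the list passed as tested and did not pass, or turned round, after the correction. Fxr1, an FMRP-family gene with muscle isoforms, had 1.41 (adjusted p = 0.000502) over sedentary as tested and 0.07 (adjusted p = 0.893) after the GC correction. Ptbp3, a polypyrimidine-tract binding protein, had 1.58 (adjusted p = 0.000641) and 0.17 (adjusted p = 0.76). Ptbp2, chosen after its values were seen, turned round: 1.26 (adjusted p = 0.00923) as tested and -0.67 (adjusted p = 0.0194) after the correction. Matr3, a nuclear matrix protein that binds PTB, had 82.2 ± 9.74 CPM in libraries labelled CD47-KO and 9.95 ± 4.58 CPM in exercise libraries, and passed both ways, with log2 fold changes of 3.04 (adjusted p = 0.000153) as tested and 1.52 (adjusted p = 0.00435) after the correction. In exercise against sedentary libraries none of the list was called, and the smallest p-values were those of Khdrbs1 at 0.21 (SE 0.12) and Rbpms2 at -0.68 (SE 0.39), both with an adjusted p of 1.0.

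**Figure D4:**
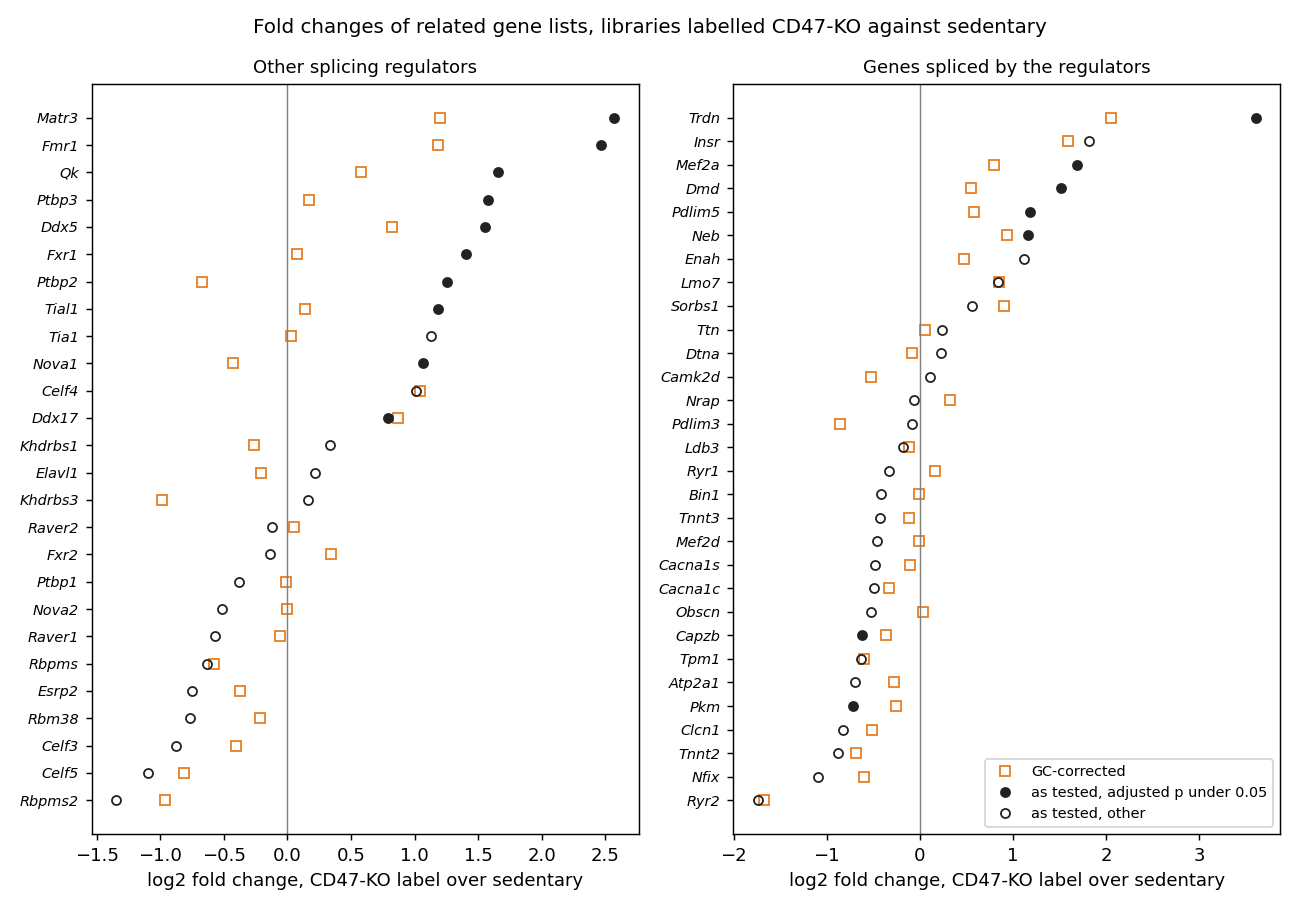
Log2 fold change of each other splicing regulator (left) and of each gene spliced by the regulators (right), libraries labelled CD47-KO over sedentary (x axis), as tested (circles, filled where the adjusted p was under 0.05) and after the GC correction (squares). Trdn is farthest right among the spliced genes at 3.61 and stays at 2.05, while Ptbp2 lies at 1.26 as tested and -0.67 after the correction.

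Muscle genes known to be spliced by the members were a list of 30, all tested. In libraries labelled CD47-KO 5 rose and 2 fell relative to sedentary libraries, with a median log2 fold change of -0.26 (-0.11 for all genes). Over all genes 11.9% rose and 8.75% fell, so the list's counts are near the background. After the GC correction 1 was higher and 0 lower, with 4.31% and 4.64% of all genes called. Relative to exercise libraries 5 rose and 4 fell (12.2% and 8.34% of all genes), with 2 higher and 0 lower after the correction (4.51% and 4.57% of all genes). Trdn, the triadin of the calcium release complex, had 1607 ± 163 CPM in libraries labelled CD47-KO and 132 ± 75.4 CPM in sedentary libraries. Its log2 fold change was 3.61 (SE 0.46, adjusted p = 8.37e-05, edgeR) and 2.05 (adjusted p = 0.000397) after the correction, and over exercise 4.03 (adjusted p = 2.59e-05) and 2.24 (adjusted p = 0.000158). Neb, the giant thin-filament protein nebulin, rose by 1.16 over sedentary (adjusted p = 0.0133) and 1.57 over exercise (adjusted p = 0.00171), and after the correction had 0.94 (adjusted p = 0.0617) and 1.35 (adjusted p = 0.0083). Without CD47-KO library 3 Neb no longer passed over sedentary (log2 fold change 1.02, adjusted p = 0.0744).

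Further genes of that list passed as tested and not after the correction. Mef2a, a transcription factor of muscle genes with regulated exons, had 1.68 (adjusted p = 0.00175) and 0.80 (adjusted p = 0.0753) over sedentary, and 1.68 (adjusted p = 0.00164) and 0.70 (adjusted p = 0.12) over exercise. Pdlim5, a Z-disc protein, had 1.19 (adjusted p = 0.013) and 0.58 (adjusted p = 0.296) over sedentary, and without CD47-KO library 2 it did not pass as tested (adjusted p = 0.0654). Dmd, the dystrophin gene, had 2.10 (adjusted p = 0.00392) and 1.04 (adjusted p = 0.112) over exercise. The number of genes of the list called over sedentary, 7, was 3 without CD47-KO library 2 or library 3 and 11 without sedentary library 1, and the 9 over exercise became 4 without CD47-KO library 2 or 3 and 5 without CD47-KO library 1 or exercise library 4. None was called for exercise against sedentary, where Tnnt2 had -0.76 (SE 0.32) and Neb -0.41 (SE 0.26), both with an adjusted p of 1.0.

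Of 4 mouse counterparts of genes that carry or flank the repeats of human myotonic dystrophy, Dmpk was called in the comparison of libraries labelled CD47-KO with exercise libraries and the other 3 were not. Dmpk, a protein kinase of muscle, had 112 ± 10.2 CPM in libraries labelled CD47-KO, 219 ± 19.6 CPM in exercise libraries and 187 ± 71.8 CPM in sedentary libraries. It was lower than in exercise libraries, with a log2 fold change of -0.97 (SE 0.28, adjusted p = 0.021, edgeR), did not pass after the GC correction (-0.48, adjusted p = 0.259), and did not pass without any 1 of the libraries labelled CD47-KO (adjusted p = 0.0844, 0.056 and 0.118 without libraries 1, 2 and 3). Over sedentary libraries its log2 fold change was -0.73 (adjusted p = 0.0692, edgeR). After the GC correction it had -0.17 over sedentary (adjusted p = 0.757, edgeR). Without that correction it passed over sedentary without sedentary library 6 (-0.78, adjusted p = 0.0279, edgeR) and with DESeq2 (-0.70, adjusted p = 0.0383). Dmpk's longest transcript has 60.8% GC, in the decile with the most GC, where 20.3% of genes were called lower over sedentary libraries.

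Marker genes of muscle fibres and of other cell types are set beside the label CD47-KO as follows, where 11.9% of all genes rose and 8.75% fell relative to sedentary libraries. All marker values are given without the GC correction, and the part of the GC trend in them was not tested. Of the 10 muscle fibre markers, 0 rose and 5 fell, with a median log2 fold change of -0.76. Smooth muscle and pericyte markers (5 genes, none at 0 across a group) summed to 277 to 398 CPM in libraries labelled CD47-KO, 111 to 241 CPM in exercise libraries and 169 to 297 CPM in sedentary libraries, with 1 higher and 1 lower over sedentary. Their median log2 fold change was -0.76 over sedentary and -0.55 over exercise, opposite in direction to the sums. Fibroblast-type markers (6 genes, none at 0 across a group) summed to 291 to 344 CPM in libraries labelled CD47-KO, 144 to 288 CPM in exercise libraries and 125 to 621 CPM in sedentary libraries, with 2 higher and 0 lower over sedentary and a median of 0.27. Schwann cell and nerve markers (6 genes) summed to 17.3 to 42.1 CPM in libraries labelled CD47-KO, 21.2 to 105 CPM in exercise libraries and 33.1 to 213 CPM in sedentary libraries, with 0 higher and 2 lower over sedentary and a median of -1.51. Red blood cell markers (5 genes) summed to 173 to 284 CPM in libraries labelled CD47-KO, 254 to 1235 CPM in exercise libraries and 215 to 827 CPM in sedentary libraries, with 0 called and a median of -1.12 over sedentary, and 0 higher and 1 lower over exercise. Slow fibre (8 genes) and adipocyte markers (5 genes) had 0 called over sedentary, with medians of -0.995 and -0.21. Satellite cell markers (5 genes) had 1 higher and 1 lower, with a median of 0.23. Endothelial markers (6 genes) had 0 higher and 1 lower, with a median of -0.47. For macrophage markers (6 genes) 1 was higher and 0 lower, with a median of 0.43. The part of all these markers, and of the mitochondrial share, in the levels of Mbnl1 and Mbnl2 was not tested.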

How the data were processed

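The deposited values were gene counts in 1 table of 15 skeletal muscle libraries. The submitters' processing notes name HTSeq 0.6.1, HISAT2 2.0.1 and Trimmomatic 0.30, on GRCm38; how strand was counted is not given in the sources used here. In every library values of 4, 8 and 12 made up 32.1 to 50.2% of values from 1 to 15, so the counts may not be plain reads. No libraries of the same group agreed within sampling noise (lowest chi-square per degree of freedom 78.1). Libraries of different groups were not compared in this way.

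Members and lists were chosen with earlier results of these data known. After filterByExpr (17975 genes) and TMM scaling, edgeR 4.0.16 under R 4.3.3 tested the counts (quasi-likelihood, all 15 libraries, robust dispersion, prior count 2). P-values were two-sided and Benjamini-Hochberg adjusted over all genes, with a threshold of 0.05. Standard errors came from the fold change and its F statistic. Symbols were matched to GENCODE M21 on GRCm38, with 22716 of 22798 found once. The GC correction fitted each library's log2 CPM deviation on the GC content of the longest transcript (lowess, span 0.3) and used it as an offset. Named genes were the members, up to 4 genes of smallest p per list in comparisons with CD47-KO and 2 for exercise, and the 5 genes most like Mbnl1. Promoter windows matched 7 of the 9 members. The methods were tested on simulated data. For CD47-KO against sedentary, edgeR recovered 9 of 91 log2 changes of 1 and 47 of 97 of 2. For exercise against sedentary it recovered 23 of 96 and 74 of 98. A GC trend simulated in CD47-KO against sedentary gave 750 false calls as counted and 2 once corrected. The corrected fit then recovered 8 of 97 and 46 of 96. A gene that did not pass may therefore still differ by a log2 change of 1 or 2.

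Replicate numbers were checked as pairs: same-numbered exercise and sedentary libraries correlated at 0.194 to 0.364 within group means. All passed a rule of every pair over 0.1. Other numbers of the same set gave a median of 0.265, inside the same-number range, so the rule cannot show that numbers pair libraries. The labels' descriptions also number exercise libraries 4 to 6 as 6 to 8. The pairing, and every replicate-block value, is therefore uncertain. Libraries labelled CD47-KO shared only a number with the others. Alternatives were RLE factors, DESeq2 1.42.0, other filters, only the groups compared, the GC correction, the replicate block, sets of numbers and leaving out each library, plus, added after seeing the data, leaving out exercise library 6 and sedentary library 6 together.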

Additional observations from a re-analysis of the deposited data

Results flagged for a closer look

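In exercise library 6, Rbfox2 had 5.09 CPM while the other exercise libraries had 39.1 to 56.6 CPM, and Rbm24 had 46.0 CPM while the others had 125 to 169 CPM. Each lay farther from its nearest neighbour, as a share of the group's range, than Dixon's 95% critical value for 6 libraries. Of 16 groups of values tested 2 were picked out in this way, and chance picks out about 1 in 20. Sedentary library 6 was also the lowest sedentary library for Rbfox2 at 6.65 CPM, without passing that value.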

How the results depend on the processing

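Mbnl2 kept its direction and its call over sedentary and exercise libraries under every alternative run, with log2 fold changes of 2.15 to 2.68 and 2.26 to 2.65 when single libraries were left out, 3.0 and 2.93 with the replicate block (folds of 8.02 and 7.60), and 3.08 and 3.03 with the block and the GC correction (8.44 and 8.18). Mbnl1 had 3.06 to 3.77 and 3.78 to 4.57, and 4.42 over sedentary with the replicate block. Genes called for CD47-KO against sedentary, 3719, became 1609 with the GC correction, 2461 with the replicate block and the GC correction, and 2178 to 3881 without single libraries (2361, 2245 and 2178 without CD47-KO libraries 1, 2 and 3). Against exercise the 3698 became 1632 with the GC correction and 2292 to 3554 without single libraries, with 2292 and 2329 without CD47-KO libraries 2 and 3. Members called, 1 in each comparison, were 2 with the replicate block, with or without the GC correction, where Rbfox2 was called lower (over sedentary -1.08, adjusted p = 0.00115, and -0.76, adjusted p = 0.0108; over exercise -0.91, adjusted p = 0.00336, and -0.58, adjusted p = 0.039); 1 to 2 over sedentary without single libraries; and 2 over sedentary without sedentary library 6 and exercise library 6, where it stayed 1 over exercise. Dmpk was called lower over sedentary with the block (-0.94, adjusted p = 0.0144). With the replicate block and the GC correction, signs turned over sedentary for Celf2 (-0.17), Rbfox1 (-0.35), Fxr1 (-0.047) and Ptbp2 (-0.63), and over exercise for Celf1 (-0.18), Celf2 (-0.58) and Ptbp2 (-0.65); Ptbp2 had -0.67 and -0.69 with the GC correction alone, and Rbm20 -0.100 over exercise with the block alone. Single libraries left out gave Rbm20 -0.068 to 0.26 over exercise. For exercise against sedentary DESeq2 called 9 genes, and no member was called by any alternative. Its signs turned for Mbnl2 with the replicate block (0.077), with the block and the GC correction (0.045), with the sets as a block (0.084) and in numbers 1 to 3 (0.42); in numbers 1 to 3 for Mbnl1 (0.17) and Rbfox1 (0.045); in numbers 4 to 6 for Celf2 (-0.049), Rbfox2 (0.094) and Rbm20 (-0.29); and for Celf1 without both libraries 6 (-0.010). Without single libraries it ran over -0.079 to 0.25 for Celf1, -0.033 to 0.47 for Celf2, -0.28 to 0.30 for Mbnl2, -0.64 to 0.078 for Rbfox1 and -0.44 to 0.067 for Rbfox2. The difference between sets ran over -0.10 to 0.54 for Celf1 and -0.83 to 0.000115 for Celf2, with 0 to 1 genes called. The cause of these shifts was not tested. The block changed no other member's call. The 3 libraries labelled CD47-KO limit the precision of their comparisons; the effect of depth was not compared.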

Other observations

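Ratios between paralogs within a library, per kilobase of exon, varied within every group. Their size depends on the union of exons used as the length. Rbfox1 was 3.40 to 6.89 times Rbfox2 in libraries labelled CD47-KO, 1.02 to 8.08 times in exercise libraries and 0.606 to 7.66 times in sedentary libraries, with the highest exercise and sedentary values in library 6 of each group. Celf1 was 3.03 to 7.55 times Celf2 in libraries labelled CD47-KO, 4.95 to 10.8 times in exercise libraries and 5.30 to 14.5 times in sedentary libraries, so Celf1 exceeded Celf2 per kilobase in all 15 libraries. Rbm24 was 3.60 to 5.25 times Rbm20 in libraries labelled CD47-KO, 1.34 to 8.77 times in exercise libraries and 0.860 to 4.30 times in sedentary libraries, with sedentary library 5 as the only library where Rbm20 was higher.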
